A study of Hordeum vulgare with 6 samples.

Results

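The regions described here are the shorter H3K27me3 regions in the middle of the barley chromosomes. H3K27me3 was mapped by ChIP-seq, in which chromatin that carries the mark is precipitated with an antibody and its DNA sequenced, in endosperm of the six-rowed spring barley (Hordeum vulgare) cultivar Morex, dissected 16 days after pollination from plants grown in a climate chamber. The series has 3 H3K27me3 ChIP libraries and 3 input libraries of this 1 genotype, tissue and stage, with no treatment, mutant or second tissue. Each ChIP library has 1 peak list, and input libraries were not analysed here on their own. Sheared chromatin was pooled before the precipitation and the labels do not say what was pooled, so the spread between replicates may be technical alone.

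Members were chosen by the calls, widths and positions of the peaks. Peaks of the 3 lists were merged where they overlapped or touched. A merged region was kept if all 3 lists had a peak in it, if it lay on chromosomes 1H to 7H, if it was narrower than 80 kb and if its midpoint lay between 30% and 70% of the chromosome length, measured to the last peak. This gave 831 regions, which is 29.8% of the 2791 regions of that width found in all 3 lists on the chromosomes, 25.7% of the 3237 such regions of any width and 12.1% of all 6846 merged regions of the series. They covered 14.9 Mb. Width, position and calling made the set, and the fold and q of a peak come from the same comparison of ChIP with background. The values below are therefore descriptions, and no test was made on them.

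H3K27me3 is a histone mark that Polycomb repressive complex 2 sets with a histone methyltransferase subunit of the Enhancer of zeste type. In plants it marks genes held silent in a given tissue or stage, and in Arabidopsis endosperm it has also been found on transposable elements that lost DNA methylation. Barley chromosomes are large and rich in repeats. Their interior recombines little and is poor in genes, while genes and crossovers concentrate towards the ends. Recombination was not measured in this series, so the zone is defined here by position alone.

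The central zone makes up 40% of the chromosome length and held narrow regions at 0.495 per Mb. The interstitial parts, from 10% to 30% and from 70% to 90% of the length, are as long in total and held 863 narrow regions, or 0.514 per Mb. The distal parts, the outer 10% at either end, held 1097 in 20% of the length, or 1.31 per Mb. The central zone was thus close to the interstitial parts in number, and the rise was at the ends. Narrow central regions occupied 0.887% of the sequence of their zone, against 0.935% in the interstitial parts and 3.04% in the distal parts. Domains of 80 kb or more were rarer in the centre, where 81 of them made up 8.88% of the regions of all 3 lists, against 11.5% in the interstitial and 18.7% in the distal parts.

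**Figure D1:**
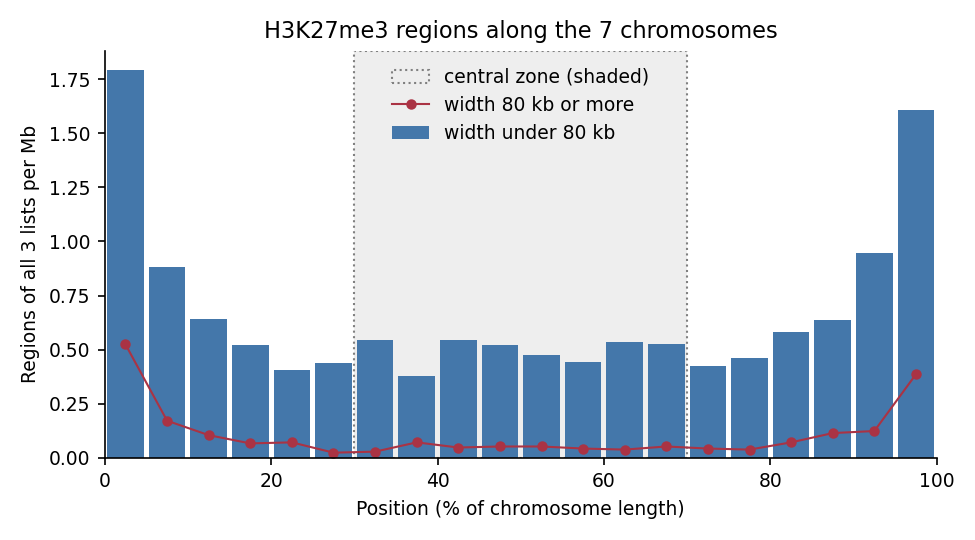
Regions found in all 3 lists per Mb (y axis) in successive 5% steps of chromosome length (x axis), summed over 7 chromosomes; bars are regions under 80 kb, points and line are regions of 80 kb or more, and the central zone is shaded. Inside the zone the bars lie between 0.377 and 0.543 per Mb, while the outermost steps reach 1.79 and 1.61 per Mb.

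Within the zone the density was uneven at a finer scale. In steps of 5% of the chromosome length, it was lowest from 35% to 40%, with 79 regions or 0.377 per Mb, and highest from 30% to 35% and from 40% to 45%, with 114 regions or 0.543 per Mb in each. The median width of these steps ran from 11.4 to 13.5 kb. The highest of these medians was in the step from 50% to 55%, where the median folds were 2.65, 2.57 and 2.68 in the order of the replicates.

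All 7 chromosomes contributed. Chromosomes 3H and 7H had 131 regions each, 2H had 130, 6H had 113, 4H had 112, 5H had 109 and 1H had 105. Per Mb of central sequence the order ran from 0.459 on 4H and 0.463 on 5H to 0.518 on 7H and 0.527 on 3H. On every chromosome this was below the density of narrow regions outside the zone, which ran from 0.664 per Mb on 4H to 0.877 per Mb on 7H. The median width was between 10.3 kb on 4H and 12.9 kb on 7H. The median fold was 2.46 ± 0.074 on 2H, the lowest, and 2.56 ± 0.13 on 7H, the highest (SD, n = 3 libraries each). Within replicates 1, 2 and 3 the 7H median was above that of 2H by 0.117, 0.0377 and 0.147. The 2 chromosomes were picked by the means of these same medians, so the differences are no check of the order. In single libraries the lowest median was on 5H in replicates 1 and 2 (2.42 and 2.36) and on 6H in replicate 3 (2.43). The highest was on 1H in replicate 1 (2.65), on 3H in replicate 2 (2.48) and on 7H in replicate 3 (2.67).

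**Figure D2:**
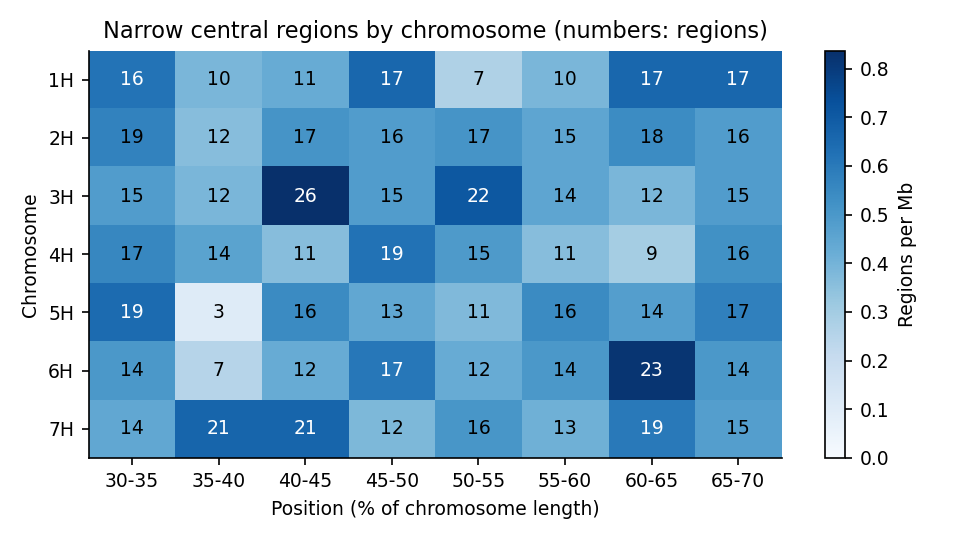
Number of narrow central regions (printed numbers) and their density per Mb (shade) for each chromosome (y axis) in 5% steps of chromosome length (x axis). The step from 35% to 40% of 5H holds 3 regions and the step from 40% to 45% of 3H holds 26.

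The regions were spread thinly, and long stretches had none. The median distance from a member to the nearest other member was 587 kb. Of the 831, 131 (15.8%) had another within 100 kb and 32 (3.85%) within 10 kb. Against all regions found in 3 lists, wide ones included, the median distance was 539 kb, close to the 503 kb of narrow interstitial regions and longer than the 164 kb of narrow distal regions. Wide domains were far away: the median distance to the nearest was 6615 kb, and 12 members (1.44%) had one within 100 kb.

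The longest stretch without a member was 13.7 Mb on 5H, from 206186469 to 219906400. It was followed by 13.0 Mb on 6H, from 189737282 to 202692938, and 10.6 Mb on 4H, from 272055350 to 282624113. The 5H stretch ran from 35.1% to 37.4% of the chromosome, inside the step that held 3 members. The stretches were not free of calls. The one on 4H held 22 merged regions of any list, of which 1 was found in all 3, and the ones on 5H and 6H held 10 and 9, of which 2 were found in all 3 on each.

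At a limit of 1 Mb between neighbours, 540 members fell into 200 runs, the largest of 9, and 291 stood alone. Close groups were few. With a limit of 100 kb between neighbours, 700 members (84.2%) stood alone, 57 pairs held 114 and 4 larger runs held 17. The largest run had 6 members within 156 kb on 4H, from 282624114 to 282779874, and began where the stretch without members on that chromosome ended. The mean fold of its members ran from 2.08 to 2.82. The other larger runs had 4 members on 3H from 343687789 to 343863442, 4 on 7H from 279943225 to 280084565 and 3 on 6H from 362698858 to 362773653. No member of these 4 runs had a mean fold above 3.84.

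Most members were short. The narrowest spanned 2.35 kb, the median was 11.8 kb, and the central 50% of widths lay between 8.59 and 20.4 kb. Of the 831, 300 (36.1%) were under 10 kb and 317 (38.1%) were between 10 and 20 kb. The 81 members of 40 kb or more (9.75%) held 31.6% of the length. Narrow interstitial regions had nearly the same median, 11.8 kb, with 10.3% at 40 kb or more. Narrow distal regions were wider, with a median of 14.8 kb and 18.1% at 40 kb or more.

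The fold is the enrichment over background that the authors' peak caller gives for each peak. It was low in most members. In replicate 1 it ran from 1.73 to 15.4 with a median of 2.56. In replicate 2 it ran from 1.66 to 16.0 with a median of 2.43, and in replicate 3 from 1.54 to 15.5 with a median of 2.58. The median over members was 2.52 ± 0.080 (SD, n = 3). The lower end differed more between libraries: 0.722% of the members had a fold under 2 in replicate 1, against 20.9% in replicate 2 and 15.2% in replicate 3. Because a member needs a peak in every list, the weakest peaks that replicates 2 and 3 alone contain are not in the set.

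**Figure D3:**
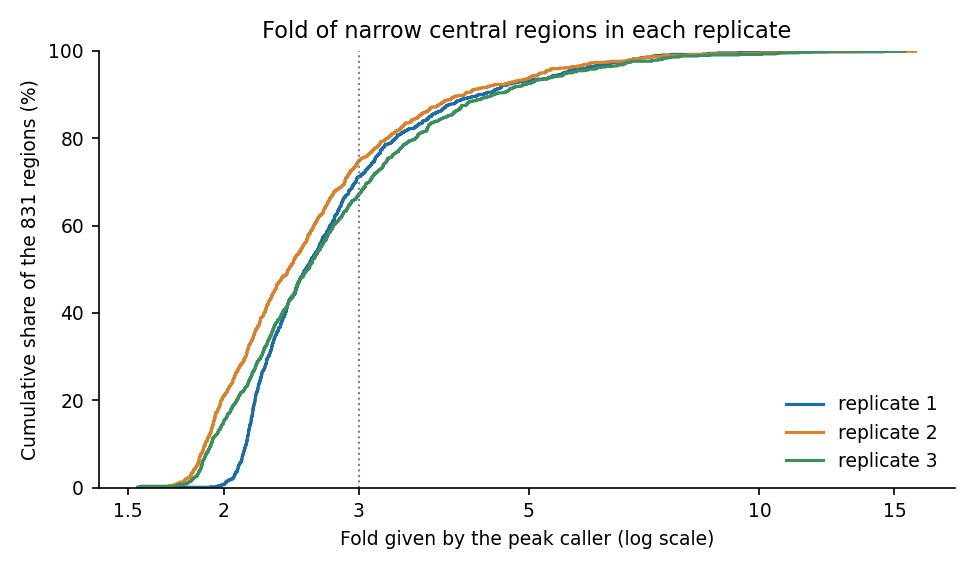
Cumulative share of the 831 narrow central regions (y axis, %) with a fold up to the value on the x axis (log scale), 1 line for each replicate; the dotted line is a fold of 3. Replicate 1 has 0.722% of the regions under a fold of 2 and replicate 2 has 20.9%, and at a fold of 3 or more lie 25.3% to 33.0% of the regions.

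Fold was set beside the other narrow regions in each library. The median in replicates 1, 2 and 3 was 2.57, 2.49 and 2.63 for the interstitial parts and 2.81, 2.65 and 2.86 for the distal parts. Central regions were the lowest of the 3 zones in every library. The interstitial mean was 2.56 ± 0.068 and the distal mean 2.77 ± 0.11 (SD, n = 3 each). Within replicates 1, 2 and 3 the central median differed from the interstitial one by -0.00877, -0.0606 and -0.0493. Its differences from the distal median were -0.246, -0.219 and -0.287. Central domains of 80 kb or more had a median fold of 4.59 ± 0.27 (SD, n = 3). An exact permutation test of 3 against 3 libraries cannot go below p = 0.1, and these are the same 3 libraries in each zone.

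A fold of at least 3 was reached by 28.9% of the members in replicate 1, 25.3% in replicate 2 and 33.0% in replicate 3. For narrow interstitial regions these shares were 31.9%, 29.7% and 35.2%, and for narrow distal regions 42.6%, 38.8% and 45.3%. In 155 members (18.7%) a fold of at least 3 was reached in every replicate, against 25.0% of all narrow regions of 3 lists on the chromosomes. A fold of at least 5 in every replicate was reached by 40 members (4.81%), against 8.42% of all narrow regions. In 489 members (58.8%) no replicate reached 3, a count that was not made for all narrow regions.

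Peak confidence separated the libraries more than fold did. The −log10 q that the peak caller assigned had a median over members of 2.89, 4.91 and 5.65 in the order of the replicates. Replicate 1 was thus low here, while its median fold lay between those of the other replicates. Its value exceeded that of replicate 2 in 18.4% of the members and that of replicate 3 in 11.9%. A −log10 q of at least 5 was reached by 28.0%, 49.6% and 55.4% of the members in replicates 1, 2 and 3. It was reached in all 3 by 211 members (25.4%) and in none by 302 (36.3%). Over all narrow regions of 3 lists the shares were 31.5% and 32.7%. The lists hold no read counts, so library depth is unknown here, and what it adds to these differences was not tested.

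Width and fold rose together among members. Members under 10 kb had a median fold of 2.21 ± 0.11, those of 10 to 20 kb 2.67 ± 0.12 and those of 20 to 40 kb 3.35 ± 0.14 (SD, n = 3 each). The 81 members of 40 kb or more had 3.27 ± 0.057 (SD, n = 3), within the spread of the class before. Across the 831 members, Spearman's rho of width and mean fold was 0.588. The points share the 3 libraries, and both measures come from the same peak calls.

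**Figure D4:**
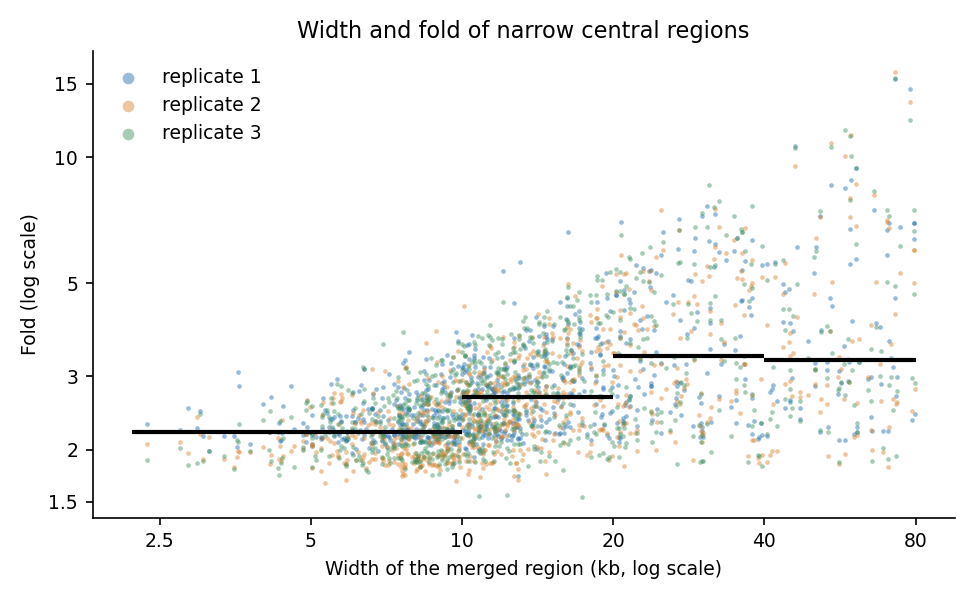
Fold (y axis, log scale) against width of the merged region in kb (x axis, log scale) for the 831 narrow central regions, with 1 point per region and replicate; black lines are the mean over replicates of the median fold in 4 width classes. The lines rise from 2.21 under 10 kb to 3.35 at 20 to 40 kb, and the highest folds are at widths above 40 kb.

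Inside a member the replicates mostly had 1 peak each, with edges that differed. In 769 members (92.5%) every replicate had a single peak. The median distance between the edges of the outermost peaks was 1.03 kb between replicates 1 and 2. It was 1.08 kb between replicates 1 and 3, and 0.854 kb between the other pair. The 90th percentile of this distance was 3.64 to 4.22 kb. Replicate 1 covered a median of 81.8% of the merged width, replicate 2 covered 89.2% and replicate 3 covered 94.6%. The peaks of replicate 1 were also the shortest, with a median of 9.08 kb against 9.74 and 10.5 kb. In 820 members (98.7%) the 3 spans shared a common stretch, which had a median of 68.9% of the merged width and a lower quartile of 47.3%. The other 11 were joined through a peak of another replicate: in 4 the spans of replicates 1 and 2 did not meet, and in 7 those of replicates 1 and 3.

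The order of fold among members was kept only in part. Spearman's rho across the 831 members was 0.704 between replicates 1 and 2. Replicate 3 gave 0.728 with replicate 1 and 0.722 with replicate 2. Over the 1960 narrow regions outside the zone it was 0.789, 0.809 and 0.836. These are descriptions across regions that share libraries. The SD over the mean of the 3 folds of a member had a median of 11.1% and a highest value of 36.6%. It was under 20% in 744 members (89.5%). Replicate 1 had the highest fold in 350 members (42.1%), replicate 3 in 317 (38.1%) and replicate 2 in 164 (19.7%).

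How often a region was found in all 3 lists was lower in the centre. Of the 2111 merged regions under 80 kb with a midpoint in the zone, 39.4% had a peak in all 3 lists, 20.3% in 2 and 40.3% in 1. Over all chromosomes 45.1% of the 6188 merged regions of that width had a peak in all 3. The share was 42.3% in the interstitial and 53.8% in the distal parts. Replicate 1 was the missing list in 314 of the 429 central regions found in 2 lists. Of the 851 found in 1 list, 406 came from replicate 2, 364 from replicate 3 and 81 from replicate 1. In the interstitial parts the same counts were 294, 391 and 81, and in the distal parts 214, 306 and 81. Replicate 2 was thus the leading source in the centre and replicate 3 in the other zones. Regions of 1 list in the centre were short, with a median width of 3.68 kb. Peaks in members made up 73.4% of the 1175 central peaks of replicate 1, and 49.4% of the 1746 of replicate 2 and of the 1754 of replicate 3.

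The regions of replicate 2 alone were concentrated in a few stretches, which were looked for after this count had been seen. The zone was divided into 331 whole windows of 5 Mb. In 9 of them at least 8 narrow regions were found in replicate 2 only, and these 9 windows held 106 of its 405 such regions but 4 of 79 of replicate 1 and 8 of 362 of replicate 3. They lay on 3H from 260000001 to 270000000, on 4H from 275000001 to 290000000, on 6H from 255000001 to 260000000, on 7H from 325000001 to 335000000 and on 2H from 390000001 to 395000000. The window on 6H had the most, with 24. Replicate 3 had its own dense windows, 5 in number with 78 of its regions, on 1H and 6H, the highest with 23 on 6H from 200000001 to 205000000. In the 322 windows not dense in replicate 2, these 5 included, there were 354 regions of replicate 3 and 299 of replicate 2. The 9 windows were set aside for their replicate 2 counts, so a lower share of replicate 2 in the rest was fixed by that choice. The 5 windows dense in replicate 3 held 5 regions of replicate 2 alone. Which replicate leads thus depends on the windows that are set aside. Replicate 1 had a dense window as well, on 6H from 260000001 to 265000000, with 10 of its 79 regions. It adjoins the 6H window dense in replicate 2. None of the dense windows was dense in another replicate.

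The 9 windows dense in replicate 2 held 35 members, or 0.778 per Mb, against 0.488 per Mb in the others. Single windows held 0 to 7, and the one without a member lay on 4H from 275000001 to 280000000. The one with 7, on 4H from 280000001 to 285000000, includes the run of 6 members within 156 kb. In 9 of the 35 (25.7%) replicate 2 had the highest fold, against 152 of 786 (19.3%) in the other windows. The ratio of the replicate 2 fold to the mean of the others had a median of 0.936 in the dense windows and 0.930 elsewhere. The 5 windows dense in replicate 3 held 12 members, and replicate 3 had the highest fold in 4 of them.

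Members were ranked by fold within each library, and the mean rank over the 3 libraries put first a region on 1H from 323655944 to 323728748, at 62.7% of the chromosome and 72.8 kb wide. It had folds of 15.4, 16.0 and 15.5 in replicates 1, 2 and 3, or 15.6 ± 0.34 (SD, n = 3), and it ranked first in every library. The second was 77.8 kb on 3H from 319946389 to 320024197, close to the middle of the chromosome at 51.5%. It had folds of 14.6, 13.6 and 12.3 in replicates 1, 2 and 3, or 13.5 ± 1.1 (SD, n = 3). The 3 folds of the first lay above all 3 of the second.

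The next 4 members had the same mean rank. The region on 6H from 236374907 to 236432665 had folds of 8.45, 10.1 and 11.7 in replicates 1, 2 and 3. The one on 1H from 177522451 to 177568465 had 10.6, 9.54 and 10.5, and the one on 2H from 206737958 to 206792359 had 8.57, 10.8 and 10.6. A second region on 2H, 59.5 kb from 375135595 to 375195128, had 8.83, 11.3 and 10.1. Their values overlapped, and their order changed from library to library. These 6 members were 46.0 to 77.8 kb wide, and every replicate covered each of them with 1 peak over at least 93.2% of its width.

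The leading members of the other chromosomes were weaker. On 7H the region from 229938658 to 230004809 had folds of 7.46, 8.14 and 8.31 in replicates 1, 2 and 3. On 4H the region from 331870279 to 331941136 had 6.98, 6.76 and 7.25. On 5H the region from 358838047 to 358858727 had 7.02, 5.85 and 6.52 at a width of only 20.7 kb, the shortest of the 7 chromosome leaders. The lowest fold of the 7H leader was above the highest of both the 4H and the 5H leader.

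**Figure D5:**
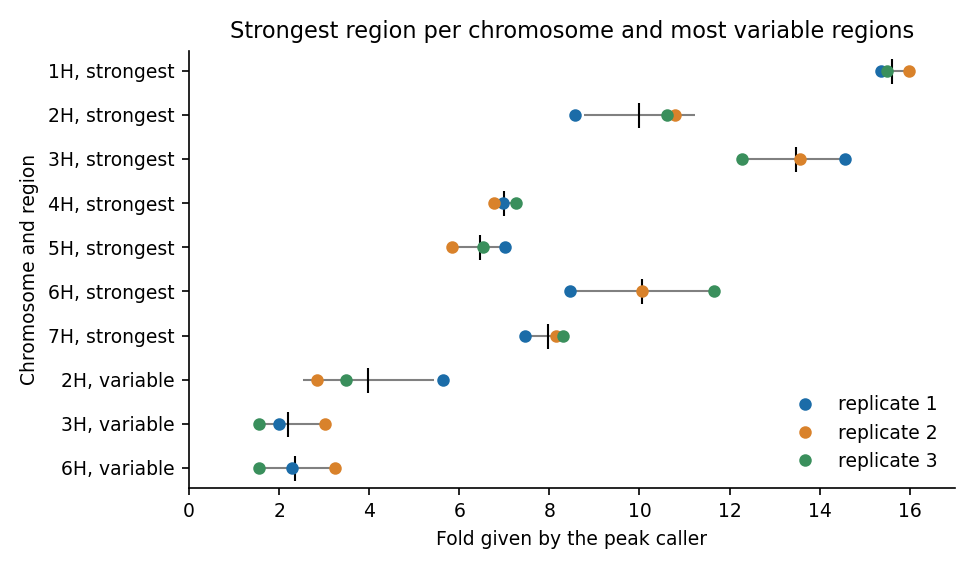
Fold (x axis) in each replicate (coloured points) with the mean (tick) and SD (line, n = 3) for the narrow central region that led each chromosome by mean rank (on 2H, the first along the chromosome of a tied pair) and the 3 regions with the largest relative spread. The 1H leader sits between 15.4 and 16.0 in all replicates, while the variable region on 2H runs from 2.85 to 5.63.

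The 5 widest members were not all strong. On 7H a region of 79.7 kb from 260982977 to 261062705 had folds of only 2.44, 2.79 and 2.89 in replicates 1, 2 and 3. On 5H a region of 78.7 kb from 404503506 to 404582165 had 2.36, 2.47 and 2.96. There replicate 1 had 1 peak over the whole width, replicate 2 had 2 peaks over 19.3% of it and replicate 3 had 4 over 40.6%. Its width thus rests on replicate 1. The other 3 of the 5 widest were stronger, with mean folds of 6.55 ± 0.50 on 1H from 249580550 to 249660073, 6.81 ± 0.76 on 3H from 292814015 to 292893299 and 5.37 ± 0.89 on 5H from 302498746 to 302578228 (SD, n = 3 each).

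The narrowest members were weak in all libraries. The region of 2.35 kb on 1H from 205953726 to 205956078 had folds of 2.30, 2.07 and 1.89 in replicates 1, 2 and 3. The regions of 2.74 kb on 5H from 275247780 to 275250522 and of 2.84 kb on 4H from 192532682 to 192535522 had mean folds of 2.11 ± 0.11 and 2.11 ± 0.36 (SD, n = 3 each). Replicate 1 had the highest fold in each of the 3.

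In 3 members the replicates differed most relative to their mean. On 2H, from 308079662 to 308092723, replicate 1 had a fold of 5.63, above the 2.85 of replicate 2 and the 3.48 of replicate 3. On 6H, from 258316644 to 258333940, replicate 2 had 3.25 over the whole width, while replicate 1 had 2.29 over 33.0% and replicate 3 had 1.54 over 9.72% of it. On 3H, from 265323509 to 265334309, replicate 2 had 3.01 over the whole width and replicates 1 and 3 had 2.01 and 1.55 over 31.7% and 33.5%. The last 2 lay in windows dense in regions of replicate 2 alone.

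The limits of the set cut through similar regions. Just inside the width limit were the regions of 79.5 kb on 1H and 79.7 kb on 7H named above. Just outside it, regions of 82.9 kb on 6H and 83.6 kb on 7H had mean folds of 6.61 and 4.84. At the lower position limit, members at 30.1% on 2H and 5H had mean folds of 2.07 and 2.68, and regions left out at 29.9% on 3H and 30.0% on 6H had 2.40 and 2.35. At the upper limit, members at 69.8% on 5H and 4H had 2.21 and 2.05, and regions left out at 70.04% on 2H and 70.1% on 3H had 2.47 and 2.39.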

How the data were processed

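The labels' protocols describe formaldehyde cross-linking, sonication, pooling of sheared chromatin and overnight incubation with anti-H3K27me3; paired reads of 150 bp were sequenced. The submitters' processing notes name bcl2fastq, HISAT2 2.1.0, GATK, MACS2 and deepTools without roles. Settings, the use of the inputs and the genome build are not given in the sources used here. The authors deposited 1 broadPeak list per ChIP library, with no header. Column 7 of the deposited lists is the fold (a ratio to background). The next columns, as deposited, are −log10 of the p-value and of the q-value. The deposited score is the whole part of 10 times the last column in 99.9% of peaks. The lowest −log10 q of a list was 1.01 to 1.04.

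Merging used Python 3.11.15 with pandas 2.3.3 and numpy 2.4.6, intervals scipy 1.17.1 and figures matplotlib 3.10.9. Merging, the selection rule and gene overlap were tested on simulated lists. A replicate's fold for a region is that of its highest peak there. Starts are printed 1-based, and chromosome length is the largest peak end. Named regions are the 5 with the highest mean rank of fold, the 5 widest, the 3 narrowest, the 3 with the largest SD over mean, the leader of each chromosome (ties by chromosome, then start) and those next to each limit. Density is given in steps of 5% in place of the planned steps of 10%, and the 100 kb run limit was added after the lists were seen. Members, lists and rules were chosen with earlier results of these data known. Alternatives covered position and width limits, thresholds, the number of lists, merging and leaving out replicates. Lists hold no depth, so intervals from read counts are not given. Genes in the closing section are from the RefSeq table of MorexV3. Sequences and gene families were not analysed here.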

Additional observations from a re-analysis of the deposited data

Results flagged for a closer look

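The unplaced sequence, which none of the comparisons used because it has no position on a chromosome, held 87 narrow regions found in all 3 lists, or 3.01 per Mb of its 28.9 Mb. Their median width was 31.5 kb and their median fold was 2.92, 2.65 and 2.48 in replicates 1, 2 and 3. They came up because they are signal outside the main measurement.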

How the results depend on the processing

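In all, 63 values of 6 results were recomputed, and 40 stayed within 1.5 times the count or density, the Wilson interval of a share or 1 SD between replicates. Thresholds moved the values most. A −log10 q minimum of 5 left 211 members at 0.126 per Mb and put 24.0% of the narrow regions in the zone, with a median width of 20.7 kb and a median fold of 3.90. With a fold of at least 3 these were 155 members, 0.0923 per Mb, 22.2%, 24.1 kb and 4.43, and 7.10% of the members overlapped a gene, against 3.73%. With a peak in at least 2 lists they were 1260, 0.751 per Mb, 31.7%, 10.1 kb and 2.32. These settings remove or add weak peaks by construction. Limits of 25% and 75% put 36.3% of the narrow regions in the zone and limits of 35% and 65% put 21.7%, as a longer or shorter zone must. A width limit of 40 kb gave a median of 11.1 kb. Leaving out each replicate gave 881 to 1157 members with median widths of 10.2 to 10.6 kb, median folds of 2.27 to 2.49 and 2.85% to 3.63% with a gene; the highest count was without replicate 1. Lengths from an assembly were not run. No paired analysis was possible because the labels pair ChIP with input libraries, and input values were not used; differences within a library stand beside the zones. Depth per library is unknown and limits how far weak regions can be compared.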

Other observations

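The build of the lists is not given in the sources used here. Genes are therefore described only under the reading that the lists use the MorexV3 assembly, whose RefSeq gene table was set beside them. The largest peak end of a chromosome minus the end of its last gene ran from -224 kb on 6H to 411 kb on 5H. Edges also met genes at a fine scale: in the first kb outside the edges of all 446 wide domains, gene starts stood at 56.1 per Mb, against 13.1 per Mb at 100 to 1000 kb. Here and below, a gene start is the lower coordinate of the gene, and strand was not used. It is therefore not the transcription start of genes on the minus strand. None of the positions in the table are printed, and the table gives no gene product.

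Over all chromosomes, protein-coding gene starts stood at 2.96 per Mb in members, against 2.95 genes per Mb in the zone. Single chromosomes differed. The density inside members was above that of the zone on 1H, 4H and 6H and below it on 2H, 3H, 5H and 7H. It ran from 0.790 per Mb on 7H (2 starts), where the zone had 2.81, to 5.76 on 1H (11 starts), where the zone had 3.40. Of the 831 regions, 31 (3.73%, Wilson 95% interval 2.64% to 5.25%) overlapped at least 1 of the 30627 protein-coding genes of the chromosomes. This compares with 7.56% of all 2791 narrow regions, 5.56% of narrow interstitial and 12.03% of narrow distal regions, and with 29.6% of the 81 wide central domains. These shares are not adjusted for width, and the wide central domains had a median width of 167 kb against 11.8 kb. Per Mb, gene starts inside the wide central domains stood at 2.16, below the 2.96 in members. The interval treats regions as independent and covers counting only. The zone held 4944 of the genes (16.1%), at 2.95 per Mb against 7.30 over the chromosomes, and members, on 0.887% of the zone's length, overlapped 58 of them (1.17%). Pseudogenes were overlapped by 14 members (1.68%), with 24 of the 5423 on the chromosomes, and long noncoding RNA genes by 3, with 3 of 3443. Ribosomal RNA genes were overlapped by 2 members, with 59 of 8416 such genes, and transfer RNA genes by 2, with 7 of 983. Small nucleolar RNA genes were overlapped by 1 member, with 2 of 934. These gene types were not counted for other narrow regions.

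Gene starts, taken as lower coordinates on either strand, stood at 2.96 per Mb inside members (44 starts). Outside their edges they stood at 4.81 per Mb in the first kb (8 starts), 2.41 from 1 to 2 kb (4 starts), 3.41 from 2 to 5 kb (17 starts) and 5.17 from 5 to 20 kb (129 starts). Farther out they stood at 4.13 per Mb at 20 to 50 kb, 3.45 at 50 to 100 kb and 2.96 at 100 to 1000 kb (4421 starts). The density was thus highest from 5 to 20 kb, and the bins nearer than that rest on few genes. The flank of 5 to 20 kb was higher than the inside on 6 of the 7 chromosomes. The exception was 4H, with 8 starts in each place, or 4.25 per Mb inside and 2.38 in the flank. The flank was also above the inside for narrow interstitial regions, with 4.27 per Mb inside and 11.01 from 5 to 20 kb. For narrow distal regions these were 9.36 and 19.2. At 100 to 1000 kb the interstitial regions had 7.54 per Mb and the distal regions 18.4, both above their inside. Members differed in this, with 2.96 per Mb both inside and at 100 to 1000 kb. Distal regions had 6.84 per Mb from 1 to 2 kb, below their inside. No test was made of these differences.

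The 31 members with a gene were wider, with a median of 23.8 kb against 11.6 kb, and a wider region meets a gene more easily. Their median fold was 3.07, 2.75 and 3.16 in replicates 1, 2 and 3, against 2.54, 2.42 and 2.56 in the other 800. Fold also rose with width among members, and all members of 20 to 40 kb had 3.35 ± 0.14 (SD, n = 3). Members with and without a gene were not compared at like width. The member with the highest mean rank of fold, on 1H, overlapped 5 genes of the table (LOC123433655, LOC123410351, LOC123433671, LOC123410361 and LOC123433687), and the region on 2H from 206737958 overlapped LOC123425869 and LOC123425870. The other 2H region of the same rank, from 375135595, overlapped none. The strong members on 3H from 319946389, on 6H from 236374907 and on 1H from 177522451 overlapped none, and neither did the leaders of 4H, 5H and 7H.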
